A study of Mus musculus with 10 samples.

Results

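The cells compared were the periportal and pericentral ends of the hepatocyte population of mouse liver at zeitgeber time 6 (ZT6, counted from ZT0, when lights conventionally go on). They numbered 2570 of the 3859 cells of that time and of 18378 cells in the whole study, 1612 of 2420 cells in library ZT6A and 958 of 1439 in library ZT6B. The cells were chosen by the measured expression of 16 landmark genes, through a score: the mean z-score of 8 genes known from the portal side of the lobule minus the mean z-score of 8 known from the central side. Each library was divided by this score into 3 parts of nearly equal cell number. The top part is called periportal and the bottom part pericentral, and both were compared within the library. The study held 10 libraries of single hepatocytes from C57BL/6 males of 3 months on regular chow ad libitum, 2 of them from ZT6 and ZT18 each and 3 from ZT0 and ZT12 each. The labels name no genetic change in any group. All animals were anaesthetized with ketamine at 50 mg/kg and xylazine at 5 mg/kg, and gave hepatocytes by collagenase perfusion and a Percoll gradient. How many mice made up a library is not labelled, so the p-values given here measure the spread between libraries, which may be technical.

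Blood enters the liver lobule at the portal vein and leaves at the central vein, and hepatocytes along this path divide their work. Portal hepatocytes are known for urea synthesis, gluconeogenesis and the secretion of plasma proteins. Central hepatocytes are known for glutamine synthesis, bile acid synthesis and the cytochrome P450 enzymes that oxidize drugs, a pattern kept by Wnt signals from the central vein.

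The landmarks set the zones, so their levels are given as a description with no test. Levels are UMI counts (distinct tagged mRNA molecules) summed over the cells of a zone and scaled to CPM, a level relative to the library total after TMM normalization. Cyp2f2, a portal P450, stood at 68.9 CPM in the pericentral and 1189 CPM in the periportal zone of ZT6A, and at 62.5 and 1203 CPM in ZT6B. Cyp2e1, the central P450 of ethanol oxidation, stood at 3374 and 92.1 CPM in ZT6A and at 3775 and 258 CPM in ZT6B. All 16 landmarks were higher in the zone they name in both libraries, as the rule makes them. The urea cycle enzyme Ass1 had one of the smaller gradients, with 484 and 920 CPM in ZT6A and 424 and 981 CPM in ZT6B. The score is a range and not a type of cell: the last pericentral cell scored -0.486 in ZT6A and -0.532 in ZT6B, against -0.479 and -0.531 for the first cell outside. The last periportal cell scored 0.621 and 0.562, against 0.621 and 0.561 outside. Within 0.1 of these limits lay 127 and 194 cells in ZT6A and 102 and 94 cells in ZT6B. When the landmarks were split into alternate genes, the scores from each set correlated over cells with r = 0.710 in ZT6A (2420 cells) and 0.705 in ZT6B (1439 cells), where both scores share the depth of the cell.

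The zones differed little in depth and somewhat in mitochondrial share. The pericentral and periportal zones held 806 cells each in ZT6A, with 1714007 and 1659775 UMIs, and 479 cells each in ZT6B, with 838628 and 920326 UMIs. The median cell had 1986 pericentral and 1772 periportal UMIs in ZT6A, but 1597 and 1719 in ZT6B, so depth ran in opposite directions. Mitochondrially encoded genes took a median of 13.1% of pericentral and 15.8% of periportal UMIs in ZT6A, and 13.5% and 15.3% in ZT6B. Markers of other cells were scarce: no lymphocyte marker had a UMI in either zone, and macrophage markers summed to 0 to 14 UMIs per zone. Endothelial markers summed to 56.5 to 71.8 CPM, mostly Dpp4, and erythroid markers to 71.7 to 117 CPM, mostly Alas2. Among the endothelial markers Stab2 had 18 pericentral and 3 periportal UMIs in ZT6A and 4 and 0 in ZT6B. Stellate cell markers summed to 8.35 to 11.9 CPM, cycling markers to 11.9 to 16.9 CPM and neutrophil markers to 0 to 1.17 CPM. Markers of cholangiocytes, the bile duct cells of the portal tract, summed to 51.9 CPM pericentral and 94.0 CPM periportal in ZT6A and to 38.2 and 48.9 CPM in ZT6B. Krt19 and Krt7, which define these cells, had 0 UMIs in every zone, and Epcam had 1. Cells are numbered in the tables, so barcodes shared between libraries could not be counted.

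Periportal and pericentral cells, as set by the score, differed in 624 genes at ZT6, in near equal numbers on each side. The 624 (7.03%) of 8876 genes tested had an adjusted p under 0.05 by edgeR's quasi-likelihood test. Of these, 316 (3.56%) were higher in periportal and 308 (3.47%) in pericentral cells. The median called difference was 1.89-fold, 278 genes differed at least 2-fold (135 periportal and 143 pericentral) and 123 at least 4-fold. All 624 had the same sign in both libraries. The calls came from these same libraries, so the shared sign is no separate check. In 613 of the called genes both libraries of one zone lay above both of the other, as was so in 43.7% of all genes tested. Calls depended on the level of the gene: 2.76% of genes under 20 CPM were called, 23.5% of those at 100 CPM or more and 43.1% of those at 1000 CPM or more. They also rested on having 2 libraries and on comparing within them. Without ZT6A 212 genes were called, without ZT6B 274, and 86 when the library was not a term in the fit. Scaling by library size alone moved the median difference of all genes from -0.01 to -0.11 (log2) and gave 236 periportal and 431 pericentral calls, a periportal share of 35.4% in place of 50.6%.

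**Figure D1:**
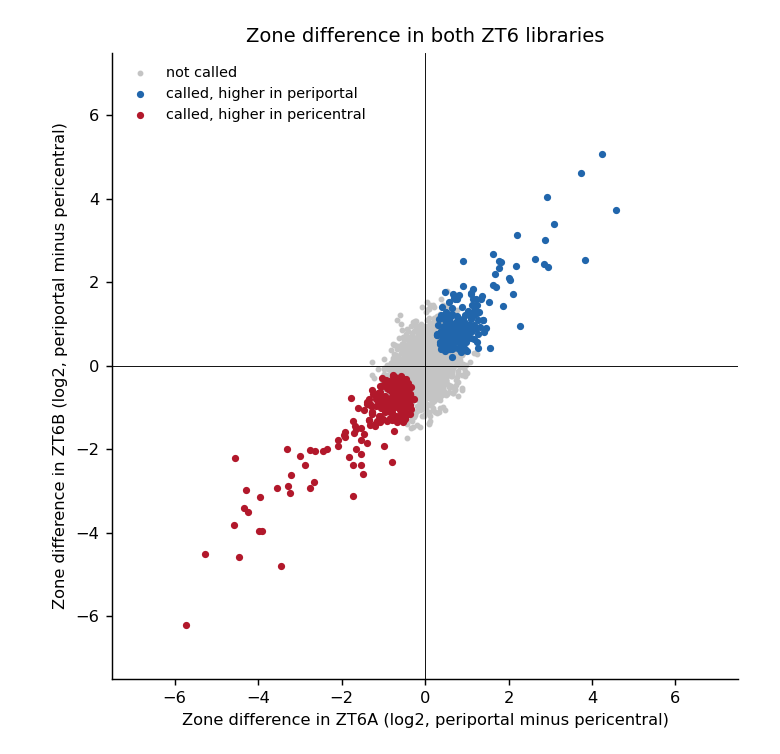
Zone difference of each gene with a mean of at least 20 CPM in library ZT6A (x axis) and ZT6B (y axis), as periportal minus pericentral log2(CPM + 1); blue and red points are genes called higher in periportal and pericentral cells, and grey points were not called. Called genes lie in the upper right and lower left, which a call made from these same libraries makes likely. Over the 4351 genes shown, the differences of the libraries correlated with r = 0.706.

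The genes with the largest periportal excess at ZT6 included enzymes that release nitrogen from amino acids and a gene of cell contact. Cdh1, which encodes E-cadherin, stood at 3.20 CPM pericentral and 98.5 CPM periportal in ZT6A, and at 4.55 and 73.1 CPM in ZT6B. Both periportal values lay far above both pericentral ones (log2 difference 4.59, SE 0.44, adjusted p = 7.57e-10, edgeR). Cdh1 is also made by bile duct cells, whose marker sums were higher in the periportal zones, as given above. Krt19 had 0 UMIs in both zones, and the part of such cells in the Cdh1 difference was not tested. Ctnnbip1, which encodes an inhibitor of the binding of beta-catenin to TCF factors, stood at 2.67 and 51.3 CPM in ZT6A and 6.82 and 44.5 CPM in ZT6B (log2 difference 3.57, SE 0.38).

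Sds, the serine dehydratase that turns serine into pyruvate and ammonium, had 23.5 CPM pericentral and 206 CPM periportal in ZT6A, and 21.6 and 235 CPM in ZT6B. The libraries nearly coincided in each zone (log2 difference 3.25, SE 0.27, adjusted p = 1.73e-11, edgeR). Gls2, the liver glutaminase that frees ammonium from glutamine, had 47.0 and 352 CPM in ZT6A and 48.9 and 400 CPM in ZT6B (log2 difference 2.95, SE 0.41). Etnppl, the ethanolamine phosphate lyase, had 49.1 and 382 CPM in ZT6A and 17.1 and 297 CPM in ZT6B (log2 difference 3.29, SE 0.39). Sfxn1, a mitochondrial serine carrier, differed by 2.64, with 37.8 ± 2.84 CPM pericentral and 234 ± 9.21 CPM periportal (SD, n = 2). The serine dehydratase and the serine carrier thus stood on the same side.

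The other periportal genes of this group had more varied roles. Hsd17b6, a hydroxysteroid dehydrogenase, had 45.6 ± 3.43 CPM pericentral and 297 ± 80.6 CPM periportal (SD, n = 2). Ppargc1a, a coactivator of gluconeogenic and mitochondrial genes, had 8.52 ± 0.791 CPM and 38.7 ± 1.38 CPM (log2 difference 2.15, SE 0.31, adjusted p = 3.96e-06, edgeR). Mfsd2a, a transporter of lysophospholipids, differed by 2.87 on the log2 scale. Clec2h, a C-type lectin, differed by 2.56, Cyp39a1, an oxysterol hydroxylase of bile acid synthesis, by 2.37 and Gas2 by 2.10. Of genes with 3 or fewer UMIs in a pericentral sum, 2 met the same rule otherwise. The mitochondrial aldehyde dehydrogenase Aldh1b1 had 170 periportal and 8 pericentral UMIs in ZT6A and 62 and 1 in ZT6B. The ratio of its levels was 23.2 (95% exact interval 11.5 to 54.6) and 62.3 (10.8 to 2498). Cib3 had 94 and 6 UMIs in ZT6A and 69 and 2 in ZT6B. Such intervals cover counting error only.

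**Figure D2:**
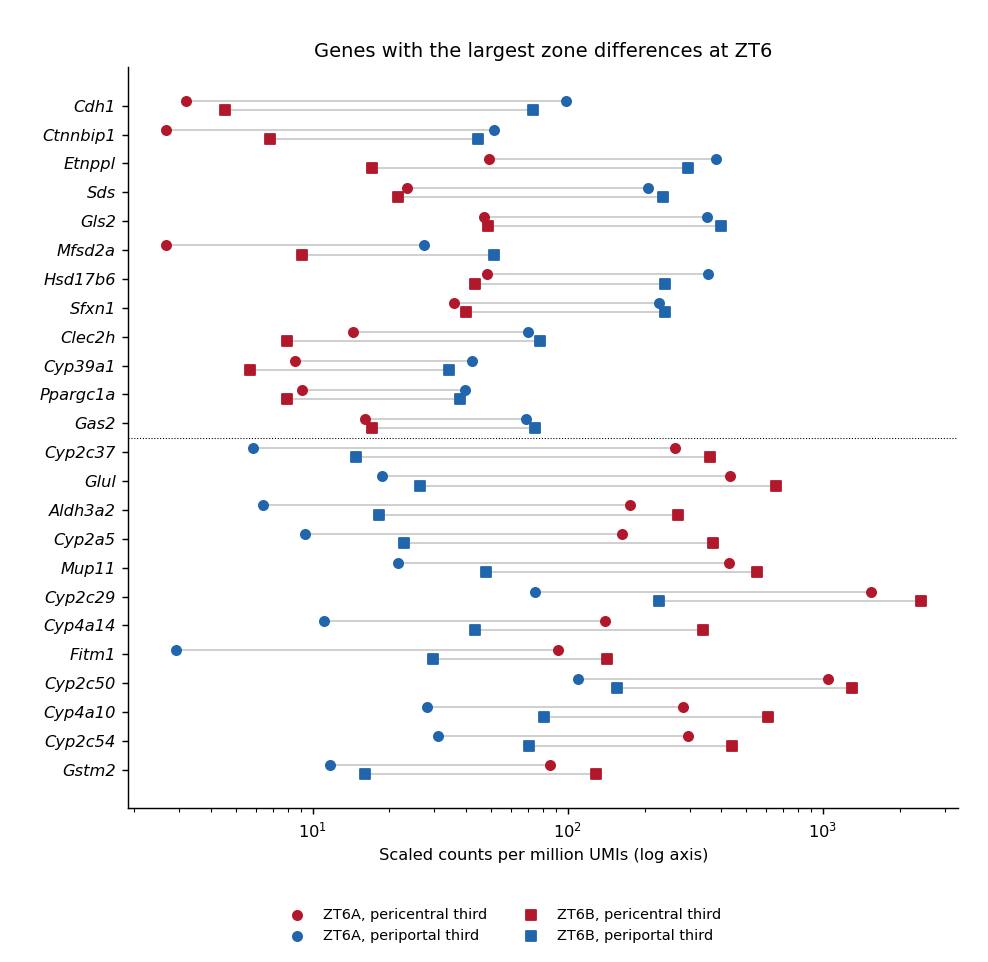
Levels of the 12 genes with the largest periportal (top) and pericentral (bottom) difference at ZT6 on a log axis of scaled CPM; red is the pericentral and blue the periportal zone, circles ZT6A and squares ZT6B. For each gene both symbols of one zone lie apart from both of the other, with Cdh1 at 3.20 and 4.55 against 98.5 and 73.1 CPM.

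The pericentral side was led by glutamine synthesis and by P450 enzymes of the Cyp2c, Cyp2a and Cyp4a families. Glul, the glutamine synthetase that captures residual ammonium before blood leaves the lobule, had 432 CPM pericentral and 18.7 CPM periportal in ZT6A, and 653 and 26.3 CPM in ZT6B. The zones did not overlap (log2 difference -4.57, SE 0.36, adjusted p = 6.36e-12, edgeR). Slc1a2, a glutamate transporter, had 155 pericentral and 1 periportal UMIs in ZT6A and 138 and 1 in ZT6B. With single UMIs in the periportal zone the ratio is loosely bounded: 142 (95% exact interval 25.1 to 5645) in ZT6A and 137 (24.3 to 5467) in ZT6B.

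Cyp2c29, a P450 of drug and fatty acid oxidation, had 1536 and 74.6 CPM in ZT6A and 2414 and 227 CPM in ZT6B (log2 difference -3.87, SE 0.21, adjusted p = 2.39e-16, edgeR). Its level in ZT6B exceeded that in ZT6A in both zones. Cyp2c37 had the largest called difference of this group, with 263 and 5.83 CPM in ZT6A and 362 and 14.8 CPM in ZT6B (log2 difference -5.04, SE 0.29). Cyp2c50 differed by -3.16 and Cyp2c54 by -2.94. Cyp2a5, an enzyme known for coumarin and nicotine oxidation, had 163 and 9.33 CPM in ZT6A and 370 and 22.8 CPM in ZT6B (log2 difference -4.06, SE 0.34). Members of these families are near copies of each other, and the counting may have divided reads between them, so single members are less certain than the family.

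Lipid enzymes formed a further part of the pericentral group. Aldh3a2, the fatty aldehyde dehydrogenase, had 175 and 6.41 CPM in ZT6A and 270 and 18.3 CPM in ZT6B (log2 difference -4.30, SE 0.23, adjusted p = 3.07e-16, edgeR). Cyp4a10 and Cyp4a14, which hydroxylate fatty acids at their far end, differed by -3.11 (SE 0.28) and -3.24 (SE 0.26). Cyp4a10 stood at 283 and 28.0 CPM in ZT6A and 610 and 81.1 CPM in ZT6B, so ZT6B was the higher library in each zone. Fitm1, a protein of lipid droplet formation, had 117 ± 35.6 CPM pericentral and 16.3 ± 18.9 CPM periportal, and its periportal values of 2.91 and 29.7 CPM differed widely between the libraries. Lpl, the lipoprotein lipase, had 126 and 9 UMIs in ZT6A and 79 and 2 in ZT6B. Mup11, a major urinary protein, differed by -3.92 and the glutathione transferase Gstm2 by -2.92. Of genes with 3 or fewer UMIs in a periportal sum, the rule also named Cyp2c40, the phosphatase Lhpp and Serpina7, the thyroxine-binding globulin, which had 43 and 1 UMIs in ZT6A and 44 and 2 in ZT6B.

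The promoters of 3 of these genes are shown because Wnt signals act through TCF factors on central genes. They were chosen after their letters were seen: Slc1a2 and Cyp2c29 hold the TCF core more than once, and Glul does not hold it in this window. The stretches are the 250 bases before the gene start from RefSeq, build GRCm38.p6, plus strand, at chr1:153899679-153899928 (Glul), chr2:102706188-102706437 (Slc1a2) and chr19:39286835-39287084 (Cyp2c29). Capitals mark the letters CTTTGA or their reverse complement TCAAAG, the TCF core.
Glul: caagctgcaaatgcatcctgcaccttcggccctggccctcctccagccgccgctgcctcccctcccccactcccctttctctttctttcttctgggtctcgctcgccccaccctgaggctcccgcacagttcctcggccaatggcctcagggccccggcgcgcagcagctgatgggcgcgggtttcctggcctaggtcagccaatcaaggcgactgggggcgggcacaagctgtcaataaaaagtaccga
Slc1a2: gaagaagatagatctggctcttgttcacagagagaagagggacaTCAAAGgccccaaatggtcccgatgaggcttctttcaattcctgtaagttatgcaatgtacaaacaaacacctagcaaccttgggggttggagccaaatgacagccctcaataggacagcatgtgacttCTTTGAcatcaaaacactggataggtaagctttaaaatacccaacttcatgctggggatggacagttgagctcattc
Cyp2c29: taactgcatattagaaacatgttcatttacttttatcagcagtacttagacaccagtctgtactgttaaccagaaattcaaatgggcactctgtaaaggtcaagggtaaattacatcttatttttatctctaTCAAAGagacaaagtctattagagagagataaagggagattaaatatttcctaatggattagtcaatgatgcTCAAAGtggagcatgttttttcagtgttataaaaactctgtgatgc

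The TCF core was about as frequent in the promoters of either side. It was searched on both strands in windows of 300 bases (250 before and 50 after the start), for the 7054 of 8876 tested genes that matched a RefSeq promoter. At least 1 match lay in 18.3% of the promoters of genes called higher in pericentral cells (44 of 241) and in 18.4% of those called higher in periportal cells (43 of 234). The share was 14.3% over all genes tested and 18.2% over all 27025 promoters in the table. The letters TGACCTTTG or CAAAGTCCA, which the hepatocyte factor HNF4A is known to bind, were found in 3.73% of pericentral promoters (9 of 241), 1.71% of periportal ones (4 of 234), 1.15% of tested genes and 1.1% of all promoters. A match is a run of letters and not a bound site.

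Dividing the cells of each library into 8 equal parts by the score showed different shapes among these genes. Glul and Slc1a2 were steep: Glul fell from 1104 CPM in the most pericentral part of ZT6A to 82.1 CPM in the next, and from 1593 to 152 CPM in ZT6B. Slc1a2 went from 219 to 11.3 CPM and from 388 to 37.1 CPM over the same step. Cyp2c29 declined in every step, from 1915 to 39.7 CPM in ZT6A and from 2861 to 132 CPM in ZT6B.

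The portal genes rose at different places along the score. Mfsd2a stayed between 1.42 and 4.42 CPM over the first 5 parts of ZT6A and had 25.8 CPM in the sixth. In ZT6B it had no such step: it varied between 3.09 and 15.0 CPM over the first 5 parts. It then had 20.05 CPM in the sixth and 69.1 CPM in the last. Its counts were low, with 9 UMIs in the middle zone of each library. Gls2 had 21.1 CPM in the first part and 197 CPM in the fourth part of ZT6A, reached 388 CPM in the seventh and ended at 345 CPM. Sds stayed between 23.6 and 26.9 CPM over the first 3 parts of ZT6A and reached 237 CPM in the last, and in ZT6B it went from 15.7 to 291 CPM. Pck1, the rate-setting enzyme of gluconeogenesis, climbed from 972 to 2721 CPM in ZT6A and from 714 to 2442 CPM in ZT6B. Cps1, the first enzyme of the urea cycle, had 1290 CPM in the first part and 1825 CPM in the second in ZT6A, and 2374 to 2512 CPM from the fourth part onwards. In ZT6B it had 961 CPM in the first part and 2086 CPM in the fourth, and reached 2649 CPM in the last.

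**Figure D3:**
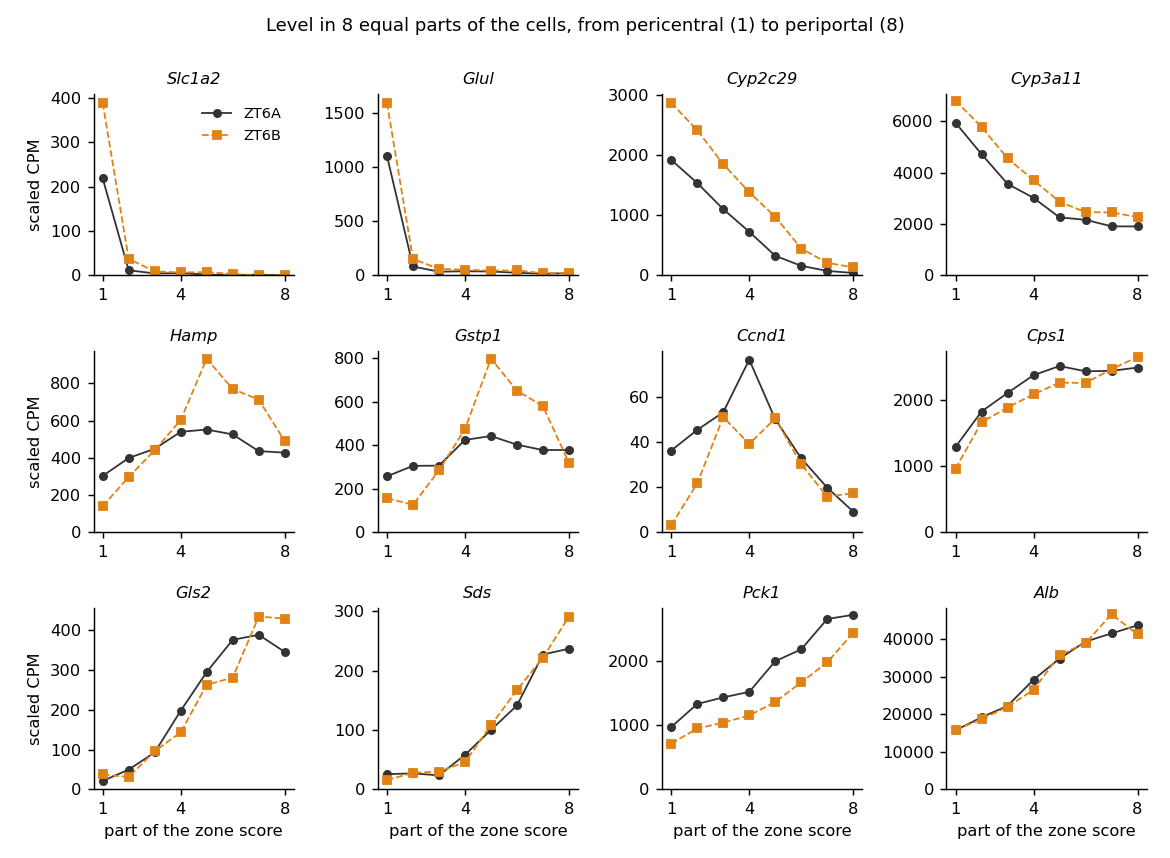
Level of 12 genes in 8 equal parts of the cells of each ZT6 library, from the most pericentral (1) to the most periportal (8), in scaled CPM on linear axes that start at 0; dark grey circles are ZT6A and orange squares ZT6B. Glul and Slc1a2 are highest in part 1 and far lower in part 2, Cyp2c29 declines throughout, and Hamp, Gstp1 and Ccnd1 are highest in parts 3 to 5.

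Genes highest in the middle of the score were not found by the test of the middle part against the mean of both outer zones. It called 0 of 8876 genes (0.0%) in edgeR and 0 in DESeq2, with 429 (4.83%) and 141 genes at an unadjusted p under 0.05. The gene with the lowest p, named after its values were seen, was Gstp1, a glutathione transferase. It had 282, 390 and 374 CPM in the pericentral, middle and periportal zones of ZT6A and 181, 573 and 486 CPM in ZT6B (log2 difference 0.56, SE 0.12, adjusted p = 0.252, edgeR). Ccnd1, which encodes the cell cycle regulator cyclin D1, followed with 41.0, 60.0 and 16.3 CPM in ZT6A and 18.1, 47.8 and 19.4 CPM in ZT6B (log2 difference 1.22, SE 0.29, adjusted p = 0.529). Hamp, which encodes the iron hormone hepcidin and was likewise chosen after its values were seen, had 354, 532 and 429 CPM in ZT6A and 270, 730 and 613 CPM in ZT6B. Its middle excess was 0.62 (SE 0.22, adjusted p = 0.971). These 3 genes were highest in the middle part of both libraries.

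The called genes of urea synthesis stood on the portal side, and the glutamine synthetase gene Glul on the central side. Of 13 tested genes of the urea cycle and nitrogen entry, 4 were called higher in periportal cells and none in pericentral cells. The other 9 were not called, 4 of the 13 had a negative difference, and 2 landmarks of the list were not tested. Their median log2 difference was 0.24, against -0.01 over all genes tested, of which 3.56% were called periportal and 3.47% pericentral. Cps1 had 1655 and 2368 CPM in ZT6A and 1418 and 2462 CPM in ZT6B (log2 difference 0.65, SE 0.18, adjusted p = 0.0141, edgeR). Arg1, which splits arginine into urea and ornithine, differed by 0.84 and Got1, the cytosolic aspartate transaminase, by 0.86. These steps were shallow beside that of Gls2. The list of glutamine synthesis and ammonium capture, with 7 genes tested and a median of -0.94, had 3 pericentral and 2 periportal calls. Besides Glul and Slc1a2, the proline dehydrogenase Prodh was pericentral (-0.94). The amino acid carriers Slc38a3 (0.83) and Slc38a4 (0.59) were periportal.

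The enzymes of amino acid breakdown, with 49 genes tested and a median of 0.01, went both ways, with 9 periportal and 5 pericentral calls. Among the periportal ones, Uroc1, an enzyme of histidine breakdown, had 159 and 391 CPM in ZT6A and 159 and 393 CPM in ZT6B (log2 difference 1.30, SE 0.24), and Amdhd1, of the same pathway, differed by 1.34. Gldc, of the glycine cleavage system, differed by 1.79. Among the pericentral ones, Csad, an enzyme that leads to taurine, had 621 and 99.1 CPM in ZT6A and 633 and 152 CPM in ZT6B (log2 difference -2.37, SE 0.17, adjusted p = 4.83e-13, edgeR). Cdo1, the cysteine dioxygenase before it, differed by -0.61, Aldh4a1 by -0.60 and Hpd, of tyrosine breakdown, by -0.52.

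The gluconeogenic genes that were called were periportal. Of 12 gluconeogenic genes tested, 5 were called higher in periportal cells and none in pericentral cells, with a median of 0.52. Pck1 had 1177 and 2474 CPM in ZT6A and 856 and 2042 CPM in ZT6B (log2 difference 1.16, SE 0.14, adjusted p = 1.23e-07, edgeR). The fructose bisphosphatase Fbp1 differed by 0.82 and the glucose 6-phosphatase gene G6pc by 0.59. Of 18 genes of glycolysis and glycogen control, 3 were periportal and 1 pericentral, with a median of -0.06. The periportal ones were the glucose transporter Slc2a2 (0.60), the glucokinase regulator Gckr (0.81) and the glycogen synthase Gys2 (0.61), and the pericentral one was Ldhd (-0.67). Of 20 genes of insulin and glucagon signalling (median -0.12), 6 had a positive and 14 a negative difference, and 17 were not called. Ppargc1a and Egfr (0.47) were called periportal and Socs2 (-0.80) pericentral. Over all genes tested, 3.56% were called periportal and 3.47% pericentral.

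Most called genes of fatty acid synthesis were periportal, and fatty acid oxidation leaned to the central side. Of 19 synthesis genes (median 0.25), 6 were called periportal and 2 pericentral, while 10 had a positive and 9 a negative difference. Acly, which supplies cytosolic acetyl-CoA, had 119 and 313 CPM in ZT6A and 137 and 295 CPM in ZT6B (log2 difference 1.27, SE 0.19, adjusted p = 6.56e-06, edgeR). Acaca, the acetyl-CoA carboxylase, differed by 1.12, Srebf1, the factor that drives these genes, by 0.92 and Fasn by 0.72. The exceptions were the elongase Elovl3, with 166 and 23.9 CPM in ZT6A and 210 and 51.4 CPM in ZT6B (log2 difference -2.42, SE 0.25), and the malic enzyme Me1 (-0.85). Of 28 genes of cholesterol synthesis and uptake (median 0.10), 24 were not called. On the periportal side 2 were called, among them Sqle (1.33), and on the pericentral side 2, among them Hmgcs1 (-0.72). Over all genes tested, 3.56% were called periportal and 3.47% pericentral.

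Of 35 genes of fatty acid oxidation and ketogenesis, 11 were called pericentral and none periportal, and 32 had a negative difference (median -0.27). The peroxisomal thiolase gene Acaa1b had 1179 and 359 CPM in ZT6A and 1991 and 652 CPM in ZT6B (log2 difference -1.66, SE 0.15, adjusted p = 8.26e-11, edgeR). Its zones did not overlap although ZT6B was the higher library in both. The enoyl-CoA isomerase gene Eci2 differed by -1.15. The fatty acid carrier Cd36 stood at 15.0 and 4.66 CPM in ZT6A and 60.3 and 9.13 CPM in ZT6B (log2 difference -2.27, SE 0.52, adjusted p = 0.00341). Of 9 omega-hydroxylases tested (median -1.04), 4 were pericentral and none periportal: Cyp4a10, Cyp4a14, Cyp4a12a (-1.56) and Cyp4a12b (-1.93).

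Bile acid synthesis was mainly pericentral, with 6 of 13 genes called on that side and 1 on the other (median -0.44). Cyp7a1, the rate-limiting enzyme of the classical pathway, had 83.9 and 7.58 CPM in ZT6A and 108 and 26.3 CPM in ZT6B (log2 difference -2.71, SE 0.29, adjusted p = 6.11e-09, edgeR). Cyp7b1, of the alternative pathway, differed by -1.98, Akr1c6 by -0.74, Cyp8b1 by -0.64 and Cyp27a1 by -0.62. Cyp39a1 was the exception. Of 18 transporters of bile acids and organic ions (median -0.03), 5 were pericentral and 2 periportal. The uptake carrier Slco1b2, with 1406 and 369 CPM in ZT6A and 1419 and 472 CPM in ZT6B (log2 difference -1.76, SE 0.15), was among the pericentral ones. The bile salt export pump gene Abcb11 (0.47, SE 0.14, adjusted p = 0.0388) and Slc22a7 (1.39) were periportal.

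Enzymes that handle foreign compounds held many pericentral calls. Of 34 tested P450 and P450 reductase genes of families 1 to 3, 18 were called pericentral and 3 periportal (median -0.63). Cyp3a11, the main drug-oxidizing P450 of mouse liver, had 4772 and 1889 CPM in ZT6A and 5798 and 2348 CPM in ZT6B (log2 difference -1.32, SE 0.21, adjusted p = 2.01e-05, edgeR). Por, the reductase that supplies these enzymes with electrons, differed by -1.15. The 3 periportal ones were Cyp2a12 (0.87), Cyp2u1 (0.99) and Cyp2d26 (0.53). Of 40 conjugation genes (median -0.10), 13 were pericentral and 5 periportal. Gstm1 had 2637 and 1573 CPM in ZT6A and 2815 and 1492 CPM in ZT6B (log2 difference -0.83, SE 0.13), and Gsta3 (-0.96), Gstm6 (-2.04) and Gstm3 (-1.66) followed it. On the other side stood Nnmt, the nicotinamide methyltransferase, with 37.9 and 119 CPM in ZT6A and 33.0 and 129 CPM in ZT6B (log2 difference 1.77, SE 0.20). Also periportal were Gstp1 (0.86), Sult1a1 (0.54), Ugt2b38 (2.02, SE 0.42) and Sult5a1 (2.68, SE 0.62). Ugt2b38 differed by 2.11 in ZT6A and 0.87 in ZT6B on the log2(CPM + 1) scale. Sult5a1 had low levels in ZT6B, at 1.1 CPM pericentral and 4.6 CPM periportal.

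Other groups tied to central hepatocytes held more pericentral than periportal calls. Over all genes tested, 3.47% were called pericentral and 3.56% periportal. Of 12 haem genes (median -0.33), Cpox (-1.31), Alad (-0.56) and Blvrb (-1.34) were pericentral and none periportal. Of 19 aldehyde and alcohol dehydrogenases (median -0.04), 4 were pericentral, among them Aldh2 (-0.75) and Rdh16 (-1.85), and Aldh1b1 was periportal. Of 32 nuclear receptors and liver factors (median -0.15), 5 were pericentral and 1 periportal. Nr1i3, the receptor CAR that induces P450 genes, had 119 and 30.3 CPM in ZT6A and 150 and 46.8 CPM in ZT6B (log2 difference -1.84, SE 0.20, adjusted p = 8.36e-09, edgeR). Ahr, the dioxin receptor, differed by -2.44, Tbx3 by -3.81 and Cebpb by -0.69, and Esrra was periportal (1.06). Among 8 tested Wnt target and feedback genes (median -2.46, or -2.39 with the member that had no periportal UMI at its bound of 3 UMIs over both libraries), 5 were pericentral. They included Notum, the secreted Wnt inhibitor (-2.92), Rnf43, which removes Wnt receptors (-1.53), and Tbx3, and Ctnnbip1 was periportal. Of 13 hypoxia genes (median -0.05), Egln3 (-1.68) and Ndrg1 (-2.98, SE 0.51) were pericentral. Periportal levels were low for Ndrg1, at 2.3 CPM in both libraries, and for Tbx3 (SE 0.49), at 1.7 CPM in ZT6A and 1.1 CPM in ZT6B.

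Most called genes for secreted proteins of blood plasma were periportal. Of 39 coagulation and complement genes, 23 were called higher in periportal cells and 1 in pericentral cells, with a median of 0.59. The fibrinogen chain Fgb had 1936 and 3248 CPM in ZT6A and 1678 and 3497 CPM in ZT6B (log2 difference 0.90, SE 0.15, adjusted p = 3.12e-05, edgeR). Fgg differed by 0.73, C3 by 0.76 and Serpinc1, which encodes antithrombin, by 0.93, and C4bp was the exception (-0.47). Of 43 other plasma proteins, 25 were periportal and none pericentral, with a median of 0.53. The haem carrier Hpx had 2152 and 6209 CPM in ZT6A and 1598 and 4612 CPM in ZT6B (log2 difference 1.53, SE 0.17, adjusted p = 1.59e-08). Albumin (Alb) differed by 1.20 (SE 0.16) and transferrin (Trf) by 0.65.

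The acute phase proteins Saa1 and Saa2 were among them, at 1.17 (SE 0.16) and 2.03 (SE 0.28). Saa2 varied between libraries, with 24.0 and 120 CPM in ZT6A and 14.8 and 29.7 CPM in ZT6B. Members of the Saa, Mup, Gstm and ribosomal protein families are near copies too, and their single values are uncertain in the same way. Major urinary proteins went both ways: of 19 tested (median -0.35), Mup20, the pheromone darcin (1.65), and Mup3 (0.52) were periportal and Mup11 and Mup17 (-1.40) pericentral. Of 25 apolipoprotein and lipoprotein genes (median 0.24), 5 were periportal, with Apoa1 at 0.80 and Apoa4 at 2.06, and Lpl and Pltp (-2.33) were pericentral. Of 35 genes of protein folding and entry in the endoplasmic reticulum, 8 were periportal and none pericentral (median 0.29), with Hspa5 at 0.62 and Xbp1 at 0.50. Of 19 heat shock chaperones (median -0.24), 3 were called pericentral and none periportal, among them the cytosolic Hsp90aa1 (-0.59) and the mitochondrial Hspd1 (-0.44).

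**Figure D4:**
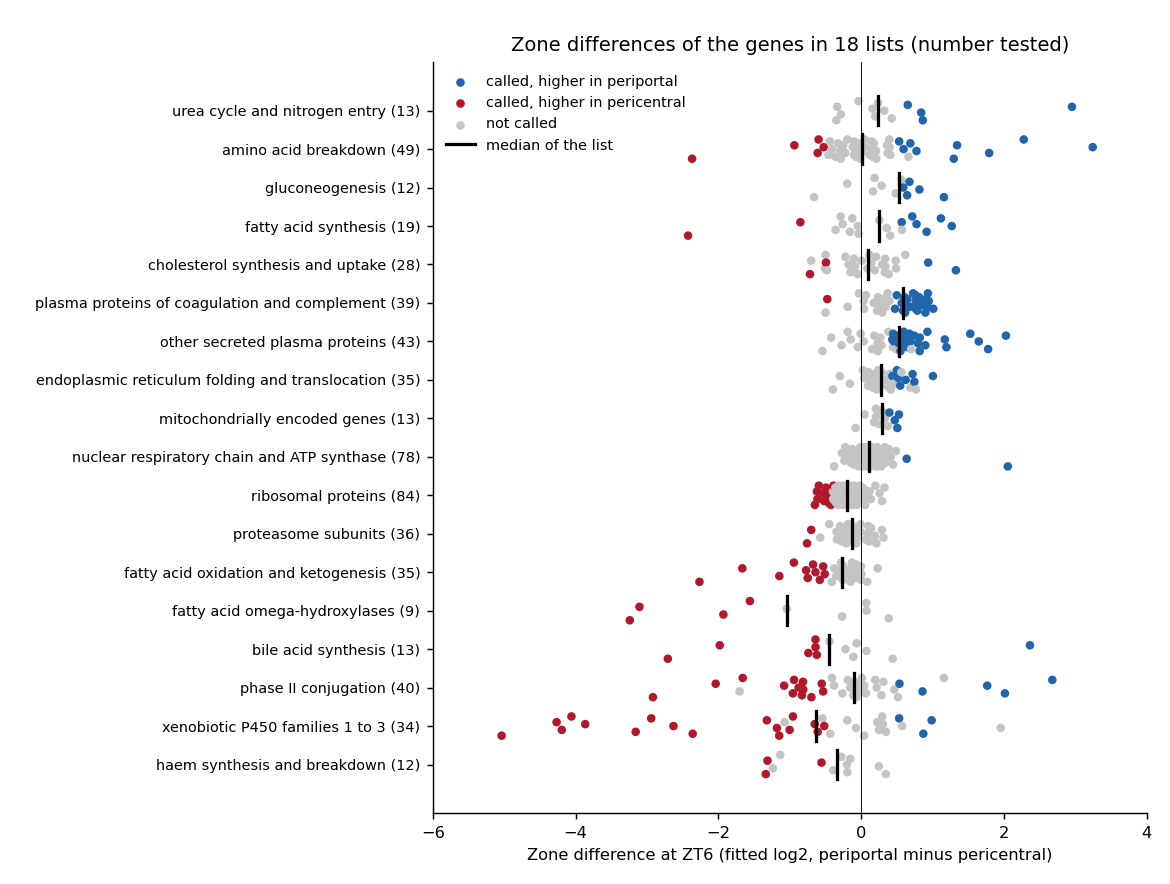
Fitted log2 zone difference at ZT6 (periportal minus pericentral) of each tested gene in 18 lists; blue and red points were called higher in periportal and pericentral cells, grey points were not called, the black bar is the list's median, the number tested is in brackets, and members with no UMI in a zone are not drawn. The lists of plasma proteins lie to the right, with medians of 0.59 and 0.53, and those of P450 genes and omega-hydroxylases to the left, with medians of -0.63 and -1.04.

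Transcripts of the translation and respiration machinery differed by small amounts. Of 84 ribosomal protein genes, 13 were pericentral and none periportal (median -0.20), with Rpl41 at -0.59 and Rps19 at -0.62. With scaling by library size alone 27 were pericentral (median -0.31, where all genes had -0.11). Of 13 mitochondrially encoded genes, 4 were periportal and none pericentral (median 0.29): mt-Cytb (0.53), mt-Co2 (0.51), mt-Nd4 (0.47) and mt-Co1 (0.40). Each of these 4 genes stood above 1000 CPM in both zones, a level at which 43.1% of genes tested were called in either direction. Their periportal excess goes with the higher mitochondrial share of periportal cells given above, and the part of cell quality in it was not tested. Of 78 nuclear genes of the respiratory chain and ATP synthase, 2 were periportal, Sdhb (0.64) and Cox7a1 (2.06, SE 0.51). Cox7a1 had a low level, with 2.3 CPM in the pericentral zone of ZT6B. The median of the 78 genes, 0.11, became -0.00088 with scaling by library size alone. Of 36 proteasome genes (median -0.12), 2 were pericentral, Psmd1 (-0.76) and Psmd14 (-0.70), and DESeq2 called 0. The counts of the respiratory chain and proteasome lists lie near the shares over all genes tested, 3.56% periportal and 3.47% pericentral.

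Further groups held more periportal than pericentral calls, where 3.56% and 3.47% of all genes tested were so called. Of 27 antioxidant genes (median -0.07), 5 were periportal and 2 pericentral, while 9 had a positive and 18 a negative difference. The metallothioneins Mt1, with 177 and 361 CPM in ZT6A and 146 and 361 CPM in ZT6B (log2 difference 1.15, SE 0.25), and Mt2 (1.97) were periportal, and Prdx6 (-0.42) and Gsr (-0.60) pericentral. Of 16 immediate early genes (median 0.35), which many stimuli induce within minutes, Fos (0.87), Btg2 (0.85), Junb (0.69) and Egr1 (0.53) were periportal and none pericentral. Of 12 iron genes (median 0.28), the iron exporter Slc40a1 (0.60) and the importer Slc39a14 (0.80) were periportal besides Trf. Hamp differed by 0.70 between the outer zones with adjusted p = 0.138. Of 18 clock genes (median 0.41), 1 was periportal, the clock output factor Dbp (0.47, SE 0.15, adjusted p = 0.0484, edgeR), and DESeq2 gave adjusted p = 0.409. A count of 1 in 18 is near the share over all genes tested. Of 16 genes of junctions and portal cells (median 0.35), 6 were periportal, among them Cdh1 and Spp1 (3.52). Cldn2, a tight junction protein (-2.01), and the N-cadherin gene Cdh2 (-0.86) were pericentral. Spp1 is also a bile duct marker. It had 66 periportal and 6 pericentral UMIs in ZT6A and 11 and 1 in ZT6B, where Krt19 had 0.

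The same zone difference was then set beside that at the other times of day. More genes were called at ZT0 (1166, 13.1%) and ZT12 (888, 10.0%), which have 3 libraries each, and a like number at ZT18 (581, 6.55%), which has 2. Of the 624 genes called at ZT6, 517 were also called in the same direction at ZT0, which is 82.8% of the ZT6 genes and 44.3% of the ZT0 genes. At ZT12 474 were called (76.0% and 53.4%) and at ZT18 311 (49.8% and 53.5%). At all 4 times 285 were called, and 74 at no other time. The times differ in library number and depth, so a gene called at ZT6 and not elsewhere is not shown to differ.

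The test of the difference itself, ZT6 against the mean of the other 3 times, called 0 of 8876 genes (0.0%) in edgeR and 0 in DESeq2, with 434 (4.89%) and 92 genes at an unadjusted p under 0.05. The genes described next were chosen after their values were seen. Txnip, an inhibitor of glucose uptake and thioredoxin, was higher in periportal cells of both ZT6 libraries, by 0.57 and 0.54 on the log2(CPM + 1) scale. It was lower in periportal cells of all 3 ZT12 libraries (-1.03, -0.94 and -0.98) and both ZT18 libraries (-1.68 and -1.59), and varied at ZT0 (-1.10, 0.81 and -0.46). Its difference at ZT6 exceeded the mean of the other times by 1.49 (SE 0.32, adjusted p = 0.303, edgeR).

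Lpin1, the phosphatidate phosphatase lipin, was higher in periportal cells of all 10 libraries. It differed by 0.97 and 1.20 at ZT6 and by 0.16 to 0.53 in the other 8 libraries (ZT6 excess 0.78, SE 0.19, adjusted p = 0.405). Abcg5, of the sterol export pump, differed by 0.05 and 0.23 at ZT6 and by -0.30 to -1.73 elsewhere (excess 1.10, SE 0.27, adjusted p = 0.405). Saa2 differed by 2.27 and 0.96 at ZT6 and by -0.46 to 1.68 elsewhere (excess 1.27, SE 0.34, adjusted p = 0.691). The libraries of ZT6 and of the other times overlapped for Saa2 and not for Lpin1 or Abcg5.

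Some pericentral genes, again chosen after their values were seen, had a smaller difference at ZT6, and none passed the test. Cyp2c29 differed by -4.34 and -3.40 in the ZT6 libraries and by -4.20 to -6.81 in the others, so the times overlapped (excess 0.94, SE 0.23, adjusted p = 0.405, edgeR). Cyp2c50 differed by -3.24 and -3.05 against -2.96 to -4.90 (excess 0.88, SE 0.22, adjusted p = 0.405). Cyp7a1 differed by -3.31 and -2.0 against -3.19 to -5.87 (excess 1.34, SE 0.38, adjusted p = 0.691), and Pon1, the plasma esterase paraoxonase, by -1.17 and -0.96 against -1.22 to -2.61 (excess 0.69, SE 0.17, adjusted p = 0.405). Other zone genes had closer values or went the other way: Sds differed by 3.25 at ZT6 and 2.82, 3.36 and 3.11 at ZT0, ZT12 and ZT18, with an excess of 0.15 (SE 0.35). Glul differed by -4.57 at ZT6, -4.33 at ZT0, -4.44 at ZT12 and -2.38 at ZT18, where the test of ZT6 against the mean of the others gave -0.86 (SE 0.43, adjusted p = 0.978).

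**Figure D5:**
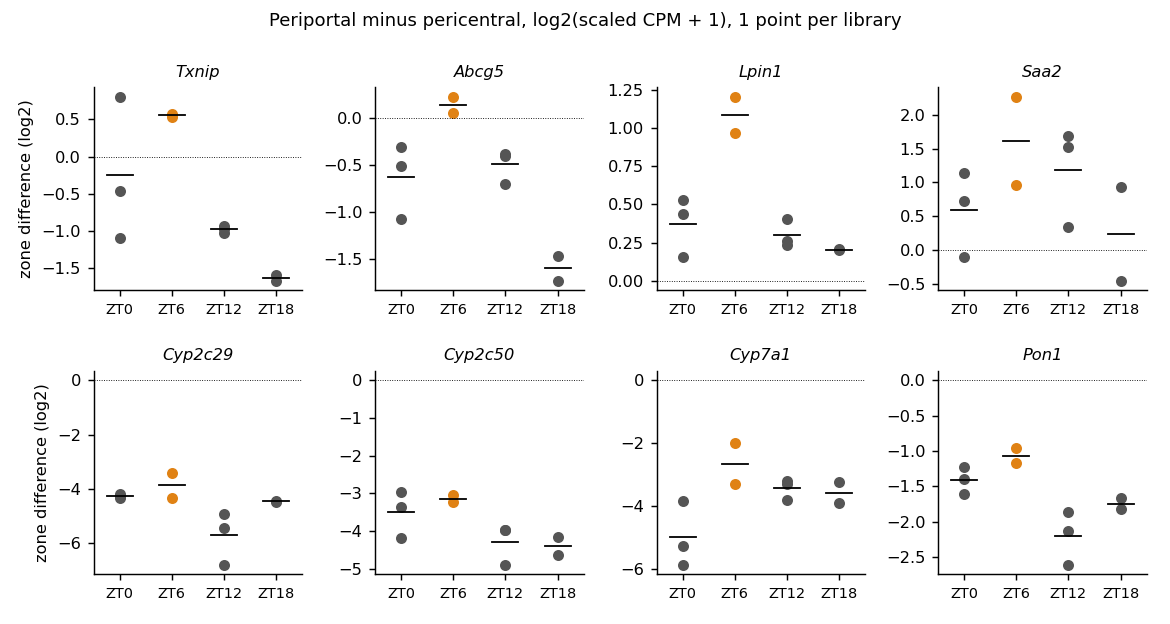
Zone difference (periportal minus pericentral, log2(CPM + 1)) of 8 genes in each library at 4 times of day; each point is a library, orange marks ZT6, the bar is the mean of a time and the dotted line marks no difference. Txnip lies above 0 in both ZT6 libraries and below 0 in all ZT12 and ZT18 libraries, and Lpin1 is above 0 in all 10 libraries.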

How the data were processed

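Single hepatocytes were sequenced with 10x Chromium 3' version 2 chemistry, per the labels' protocols. The deposited values are UMI counts per cell for 14812 gene entries. Cell Ranger and the builds hg19 and mm10 are named in the submitters' processing notes; the filter on cells is not given in the sources used here, and deposited cells held 1048 to 10001 UMIs. Lower-case entries were matched to symbols of GENCODE M21 (14321) or older symbols (353), and 138 did not match. Samples were grouped by title.

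Per library, ln(1 + UMIs per 10000) was set to z-scores, cells were ordered by the landmark score, and counts were summed over each of 3 parts. Sums of all 10 libraries were fitted with edgeR 4.0.16 (glmQLFit, glmQLFTest, R 4.3.3) after TMM, with the library as a block and 1 zone term per time (6 residual degrees of freedom), keeping genes whose mean over the outer ZT6 sums reached 3 CPM. The library block follows from the design, since both zones of a library are the same preparation; deviations of both zones from the mean of their time correlated with r from 0.270 to 0.766. Adjusted p-values are Benjamini-Hochberg, threshold 0.05. SE is the log2 difference over the root of the F statistic. No doublet caller was run. The fit was tested on simulated data. Named genes are the 12 largest called differences per direction with a mean of at least 20 CPM, the same sign in both libraries and over 3 UMIs in each sum; lists are given by counts and medians, and further genes named are list members or were chosen after their values were seen. The members, lists and tests were chosen with earlier results of these data known. Alternatives covered scaling, DESeq2 1.42.0, filters, left-out libraries, other divisions of the cells, and cells thinned to 1000 UMIs. ZT6A and ZT6B were not copies of each other (chi-square per degree of freedom 5.66). Free RNA in droplets may add to the lower zone's levels and was not tested. Results for some genes are not reported here.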

Additional observations from a re-analysis of the deposited data

Results flagged for a closer look

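For 4 genes named in the text the zone difference had one sign in both ZT6 libraries and the opposite sign in every library of another time. The pairwise differences between times were not tested; the p-values are from edgeR's test of ZT6 against the mean of the other 3 times, in which no gene passed the adjusted threshold. Such patterns were looked for only among the genes the text gives. Txnip differed by 0.57 at ZT6, against -0.998 at ZT12 and -1.74 at ZT18 (unadjusted p = 3.42e-05, adjusted p = 0.303). Abcg5 differed by 0.11 at ZT6, with values near 0 in both libraries, against -0.71 at ZT0, -0.57 at ZT12 and -1.69 at ZT18 (adjusted p = 0.405). Egr1, an immediate early factor, differed by 0.53 at ZT6 and -0.53 at ZT18 (adjusted p = 0.978). Hamp, which encodes hepcidin, differed by 0.70 at ZT6 and -0.42 at ZT18 (adjusted p = 0.984).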

How the results depend on the processing

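Called genes named here kept the direction of their zone difference at ZT6 under each alternative that gave them a value. DESeq2 gave no value for some (22 of the 24 genes with the largest differences and 113 of 125 others had one), nor did the higher filter, the fit without ZT6A and that without mitochondrial genes. Against 624 genes, DESeq2 called 305 and cells thinned to 1000 UMIs 326. Leaving out 1 library gave 212 to 754, with 212 without ZT6A and 274 without ZT6B, where the lone library is assumed to vary like the others. With no replicate block, that is without the library term, 86 were called (34 periportal and 52 pericentral), and Clec2h, Cyp39a1, Mup11 and Cyp4a14 lost their calls, the only losses among those 24 under any alternative run. Of the 125 others, 103 lost theirs with no replicate block, 62 without ZT6A (of 123), 56 without ZT6B, 39 after thinning and 25 with DESeq2 (of 113), Cps1, Abcb11, Xbp1 and Prdx6 among them. Scaling by library size alone gave 236 periportal and 431 pericentral calls.

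ZT6 against the other times gave 0 calls in edgeR, 6 with no filter on low counts and 0 to 5 when 1 library was left out (5 without ZT0C, 1 without ZT0B, ZT6A or ZT12B). The library letters did not pair the samples: deviations of the zone difference in libraries of the same letter correlated with r from -0.089 to 0.261. A replicate block of letter by zone gave 10 calls. For the middle part, 0 calls became 13 with only ZT6A and ZT6B in the fit, 15 with no filter and 0 to 12 when 1 library was left out (12 without ZT0C, 1 without ZT6A). The cause of these changes was not tested. Genes under 20 CPM are limited by depth.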
